A study of Brassica napus with 18 samples.

Results

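The 9-cis-epoxycarotenoid dioxygenases (NCED) of Brassica napus were taken as every gene whose Swiss-Prot description names that enzyme, which gave 19 copies among the 108207 genes of the expression table. By gene name they comprised 4 copies of NCED2, 6 of NCED3, 2 of NCED5, 2 of NCED6 and 5 of NCED9. NCED enzymes act in plastids, where they cut 9-cis-violaxanthin or 9-cis-neoxanthin to xanthoxin, the step regarded as limiting for the synthesis of abscisic acid (ABA), the hormone that closes stomata and sets off many responses to drought and salt. In Arabidopsis, NCED3 is the copy induced in leaves by water deficit, and NCED6 and NCED9 are known mainly from seeds. B. napus is an allotetraploid with A and C chromosomes, so an Arabidopsis gene usually has several copies in it.

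Poly(A) RNA from the shoots of B. napus, labelled as leaf, made up 18 libraries, 3 per group. Plants raised for 3 weeks in nutrient solution were either wild type (WT) or mutant for bnagrp3, which encodes a glycine-rich protein, and were taken without added salt (mock) or once NaCl at 200 mM had acted for 4 h or 8 h. The groups were thus WT mock, WT with NaCl for 4 h, WT with NaCl for 8 h, and the same 3 treatments of bnagrp3; the mutant is a line called bngrp3#2, and the labels give neither its allele nor which copies it affects. The study asked which pathways BnaGRP3 acts through under salt stress. Values were TPM (a share of all transcripts in a library, corrected for transcript length), which carry no information on read depth. The table heads its columns without salt 0 h, and these were taken as the mock libraries, the only group of a genotype without NaCl in the labels, so each value against mock rests on that match. Time in salt and time of day cannot be told apart. The labels do not state that replicates were separate plants, so a p-value here measures the spread between libraries, which may be technical.

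No library had the same values as another, and 63891 to 67072 genes stood above 0 in each. Of 11 genes named GRP3 or GRP3S that reached 1 TPM in at least 3 libraries, 2 had no overlap between genotypes. BnaA07G0050000ZS ranged from 16.9 to 137 TPM over the 9 WT libraries and from 0.88 to 11.2 over the 9 bnagrp3 libraries. A locus without a chromosome in its identifier ranged from 376 to 2799 and from 0 to 4.51. The most abundant, BnaC03G0480300ZS, overlapped (1676 to 4391 TPM in WT, 1046 to 3067 in bnagrp3), and so did Bnascaffold0025G0035900ZS, which reached higher in bnagrp3 (0.90 to 6.56 in WT, 6.13 to 160 in bnagrp3). Of the tissue markers, 94 leaf mesophyll genes (86 of which reached 1 TPM in a library) summed to 65443 TPM or more in every library, and the root marker CASP5 was listed at 0 throughout. The 90 seed genes, of which 13 reached 1 TPM, summed to 22.4 to 29.95 TPM in WT mock against 11.1 to 13.5 in bnagrp3 mock, to 19.4 to 21.2 against 12.2 to 15.2 at 4 h and to 22.1 to 25.7 against 14.1 to 19.2 at 8 h, and their part in the genotype differences was not tested. Among them, 14 without a gene name summed to 18.6 to 23.4 TPM in WT mock against 5.48 to 6.41 in bnagrp3 mock. The 10 named At4g25140 lay the other way in mock (1.3 to 2.82 against 4.87 to 5.13). They did so at 8 h as well (5.08 to 7.35 against 7.6 to 10.04) and overlapped at 4 h. A second set of root markers, BGLU23, summed to between 35.4 and 190 TPM. A set of 326 transcripts was chosen after the values were seen, for 5 TPM or more in every bnagrp3 library and 0.2 TPM or less in 2 or more WT libraries, a rule that in part builds in differences among WT libraries. Relative to bnagrp3 under the same treatment, the median level of these transcripts was 0.67 in WT at 4 h replicate 2, 0 in WT at 4 h replicate 1 and in WT at 8 h replicate 2, and 0.168 to 0.369 in the other 6 WT libraries. WT at 4 h replicate 2 was also the lowest of its group for every NCED3 copy, and results that turn on it are given with and without it.

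Nearly all NCED transcript in these shoots came from NCED3. The 19 copies summed to 9.30 ± 1.42 TPM (SD, n = 3) in WT mock, 330.6 ± 51.7 in WT at 4 h and 165.8 ± 9.40 in WT at 8 h. In bnagrp3 the sums were 7.54 ± 0.744 TPM in mock, 205.6 ± 6.38 at 4 h and 168.3 ± 3.50 at 8 h. The 6 NCED3 copies held 93.8% of the sum in WT mock and 93.0% in bnagrp3 mock, and 98.7% to 99.6% in the 4 salt groups. No copy of NCED2, NCED5, NCED6 or NCED9 reached 1 TPM in any library, and these 13 copies did not reach the minimum level set for the tests. In a bulk sample a larger share of cells with a transcript and more of it per cell cannot be told apart.

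The identifiers place the 6 NCED3 copies on chromosomes A01, C01, A03, C03, A05 and C05, that is, as 3 pairs on A and C chromosomes of equal number. In WT with salt for 4 h, BnaC01G0439400ZS (C01) had the highest mean, 91.9 ± 11.2 TPM, followed by BnaA01G0353200ZS (A01) with 84.7 ± 15.0 and BnaC05G0457600ZS (C05) with 69.5 ± 12.8. The libraries of each of these 3 copies overlapped those of its neighbour in the order. Within every single library, though, C01 stood above A01 and A01 above C05. Below them stood BnaA05G0407000ZS (A05) at 43.5 ± 3.67 TPM, BnaA03G0338300ZS (A03) at 25.7 ± 4.07 and BnaC03G0406200ZS (C03) at 14.1 ± 5.35, each with all 3 libraries below those of the copy above. How reads shared by such similar copies were divided is not given in the sources used here, so the values of a pair may not be independent.

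C01 read 4.05, 2.95 and 3.31 TPM in WT mock, 98.1, 79.0 and 98.6 at 4 h and 43.2, 31.0 and 42.9 at 8 h. In bnagrp3 its libraries read 2.48, 2.07 and 1.62 TPM in mock, 62.8, 62.5 and 63.3 at 4 h and 47.2, 50.4 and 51.5 at 8 h. Every salt library of C01 lay far above every mock library, WT was above bnagrp3 in mock and at 4 h, and bnagrp3 was above WT at 8 h, with no overlap in any of the 3 treatments. A01, its partner, read 2.57, 1.79 and 2.12 TPM in WT mock, 93.2, 67.3 and 93.5 at 4 h and 43.5, 48.1 and 53.8 at 8 h. The bnagrp3 libraries of A01 read 1.97, 1.65 and 1.48 TPM in mock, 51.8, 48.5 and 44.6 at 4 h and 42.7, 41.4 and 44.5 at 8 h. For A01 the genotypes were separate at 4 h only, where the lowest WT library stood above the highest bnagrp3 library.

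C05 read 1.27, 1.05 and 1.15 TPM in WT mock, 76.1, 54.7 and 77.5 at 4 h and 40.1, 38.3 and 39.7 at 8 h. In bnagrp3 it read 1.17, 2.33 and 1.89 TPM in mock, 34.2, 36.9 and 35.1 at 4 h and 36.1, 36.4 and 34.3 at 8 h. The mutant's 4 h and 8 h libraries thus lay in one narrow range, whereas the WT libraries peaked at 4 h. A05 read 0.83, 0.92 and 0.96 TPM in WT mock, 46.5, 39.4 and 44.5 at 4 h and 26.2, 27.9 and 27.2 at 8 h. The bnagrp3 libraries of A05 read 0.75, 0.79 and 0.55 TPM in mock, 35.4, 29.5 and 29.4 at 4 h and 28.9, 28.9 and 31.3 at 8 h. At 4 h all WT libraries of A05 were above all bnagrp3 libraries, and at 8 h all were below.

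A03 and C03 had the lowest levels of the 6, and their means at 8 h were the smallest fraction of those at 4 h. A03 read 0.69, 0.48 and 0.60 TPM in WT mock, 29.6, 21.5 and 26.0 at 4 h and 5.16, 4.03 and 4.89 at 8 h. Its bnagrp3 libraries read 0.35, 0.66 and 0.28 TPM in mock, 15.3, 20.6 and 16.7 at 4 h and 5.16, 5.12 and 5.83 at 8 h. The lowest WT library of A03 at 4 h exceeded the highest bnagrp3 library by less than 1 TPM. C03 read 0.69, 0.20 and 0.55 TPM in WT mock, 17.96, 8.02 and 16.4 at 4 h and 5.50, 4.96 and 4.56 at 8 h. In bnagrp3 C03 read 0.49, 0.22 and 0.30 TPM in mock, 9.52, 9.53 and 8.23 at 4 h and 3.70, 3.78 and 3.36 at 8 h. For C03, WT at 4 h replicate 2 fell below all 3 bnagrp3 libraries.

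**Figure D1:**
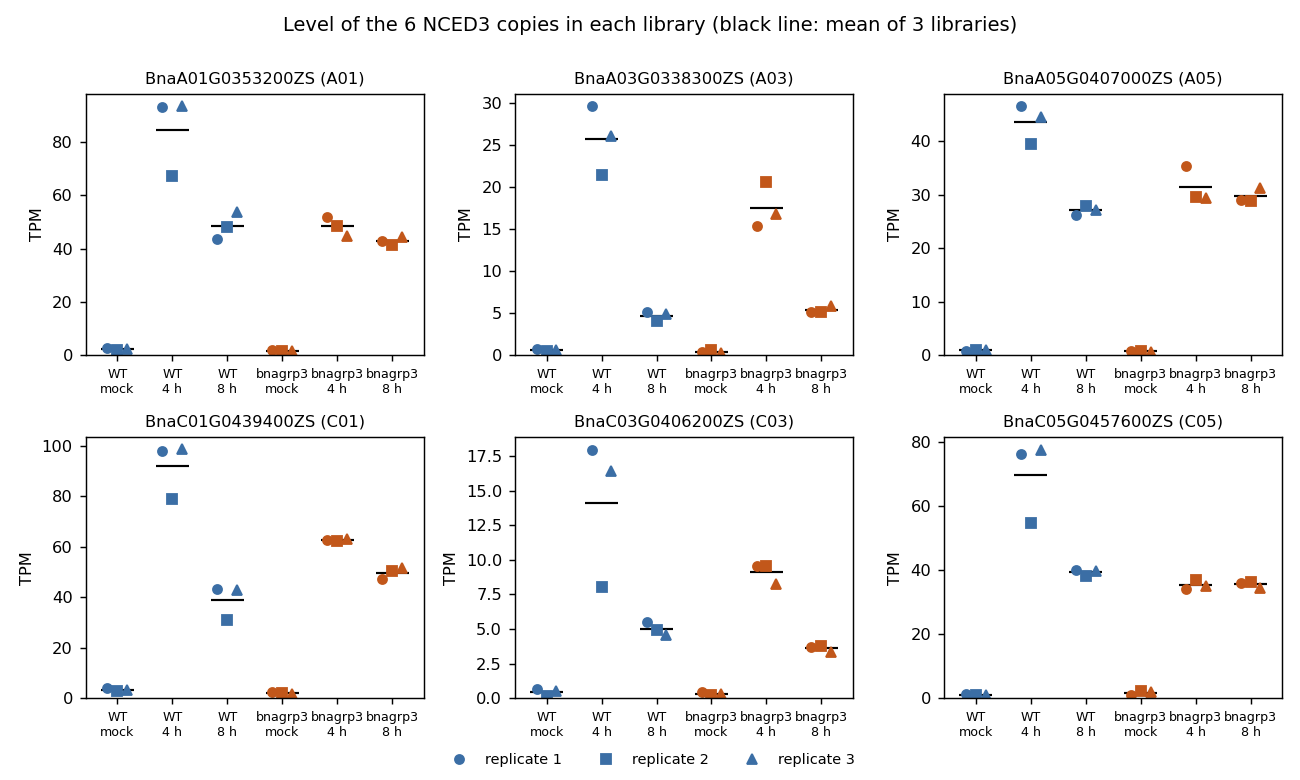
Level of each NCED3 copy in TPM (linear axis, a scale per panel) in every library, with WT in blue, bnagrp3 in orange, the marker shape giving the replicate and a black line the mean of 3 libraries. All salt libraries stand above all mock libraries, and in 5 of the 6 panels the 3 WT libraries at 4 h stand above the 3 bnagrp3 libraries at 4 h.

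With salt, all 6 NCED3 copies were called higher, in both genotypes and at both times. The plot of library levels shows the step from mock to salt in each copy. Tests were made with limma on log2(TPM + 1), a scale that understates changes of weak genes, over the 57923 genes that reached 1 TPM in at least 3 libraries. A gene was called at an adjusted p under 0.05 after Benjamini-Hochberg correction over all of them. A01, C01 and C05 were at 1 TPM or more in all 6 mock libraries, whereas A03, A05 and C03 reached the filter only through salt libraries, so the test had to find those 3 different and their salt values are given as a description.

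In WT at 4 h, A01, C01 and C05 were called higher, 3 of 3, against 26% of all genes tested. The median log2 fold change of these 3 was 4.75 against 0.06 over all genes. C05 rose most, by a log2 fold change of 5.01 (SE 0.14, limma adjusted p = 2.01e-12) or 60.1-fold in mean TPM, and had the 81st largest rise of the 57923 genes. A01 rose by 4.75 (SE 0.13, adjusted p = 1.47e-12) and C01 by 4.39 (SE 0.14, adjusted p = 6.28e-12), or 39.2-fold and 26.7-fold in mean TPM. A05 rose by 4.54, A03 by 4.06 and C03 by 3.30 on the same log2 scale, or 48.1-fold, 43.5-fold and 29.4-fold in mean TPM.

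In the other 3 salt comparisons A01, C01 and C05 were again 3 of 3 called higher. In WT at 8 h (29% of all genes) the log2 fold changes were 3.17 for C01, 3.97 for A01 and 4.23 for C05, beside 1.84 for A03, 2.03 for C03 and 3.88 for A05. In bnagrp3 at 4 h (28.7% of all genes) the 6 copies ran from 2.92 for C03 to 4.39 for C01. The order differed in mean TPM, where the rises ran from 19.7-fold for C05 to 45.1-fold for A05. In bnagrp3 at 8 h (31.3% of all genes) the log2 fold changes ran from 1.79 for C03 to 4.18 for A05. The 4 h and 8 h comparisons of a genotype share their mock libraries. At 8 h the median change of all genes was itself 0.14 in WT and 0.14 in bnagrp3 as deposited. Under 26 other settings, rescaling included, A01, C01 and C05 were called higher in all 4 salt comparisons. The sum of the mesophyll marker genes moved with salt too, from 150600.5 to 172618 TPM in the 6 mock libraries to between 65443 and 89786 in the 12 salt libraries. The sum of 4 SUC2 genes of phloem companion cells went from 131 to 153 TPM in mock to between 181 and 207 with salt. In either genotype 2 of these 4 were called higher at 4 h and 3 at 8 h, and 1 was called lower at both times. The part of these marker genes in the result was not tested.

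Between 4 h and 8 h in salt, all 6 tested NCED3 copies fell in WT. The called share of all genes in that direction was 5.75%, and the median log2 fold change was -1.005 for the copies against 0.05 for all genes. A03 fell by 2.22 (SE 0.14, limma adjusted p = 9.75e-07), C03 by 1.26 (SE 0.22, adjusted p = 0.00157) and C01 by 1.22 (SE 0.14, adjusted p = 8.68e-05). The falls of C05, A01 and A05 were 0.79, 0.78 and 0.66. In a fit of only these 2 groups 3 copies were called, and A01 (adjusted p = 0.0645), C03 (0.087) and C05 (0.056) were not.

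In bnagrp3 only A03 and C03 were called lower at 8 h than at 4 h, 2 of the 6 tested copies against 5.05% of all genes. A03 fell by 1.53 (SE 0.14, limma adjusted p = 2.44e-05) and C03 by 1.13 (SE 0.22, adjusted p = 0.00316). The other 4 copies gave log2 fold changes of -0.33 for C01 (95% interval -0.63 to -0.04, adjusted p = 0.124), -0.17 for A01 (-0.45 to 0.11), -0.08 for A05 (-0.27 to 0.12) and 0.01 for C05 (-0.30 to 0.31). C01 was called lower after median-of-ratios rescaling (-0.45, adjusted p = 0.0464) and in a fit of only these 2 groups (-0.33, adjusted p = 0.0108).

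Whether the change from 4 h to 8 h differed between genotypes was tested directly, in a comparison added after the values were seen. The estimate was above 0, that is, less of a fall in bnagrp3, for every tested copy, from 0.14 for C03 to 0.89 for C01, but for C03 it ran from -0.06 to 0.47 over the other settings. None of the 6 was called (limma adjusted p = 0.174 to 0.957), although 5 had an unadjusted p under 0.05. In this comparison 4 of the 57923 genes, 0.00691%, were called at all.

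**Figure D2:**
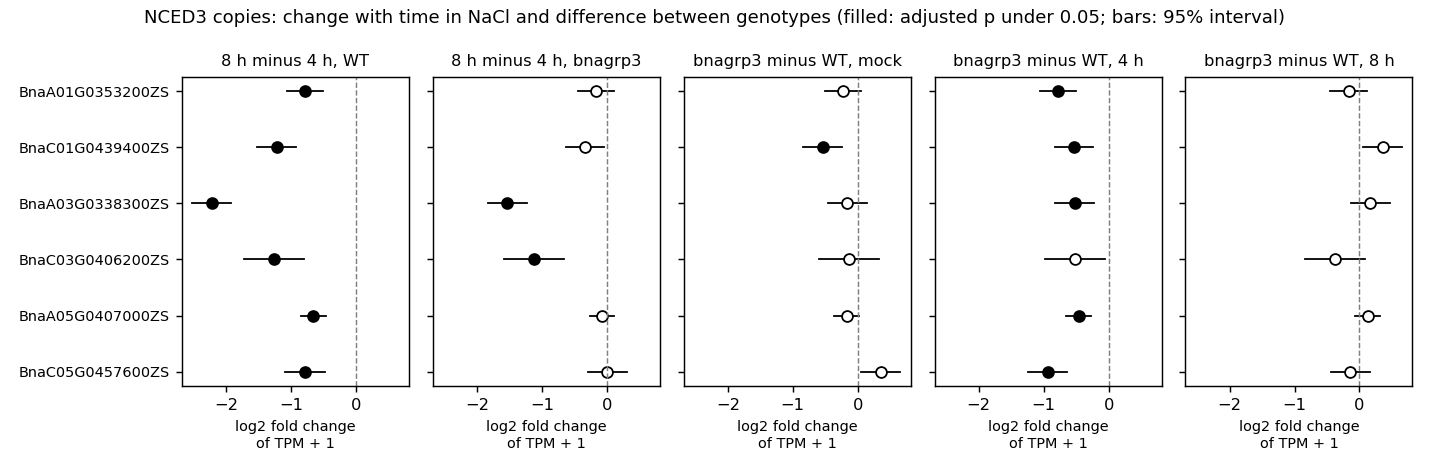
Log2 fold change of TPM + 1 for each NCED3 copy from 4 h to 8 h of salt in either genotype and between bnagrp3 and WT in each treatment, with 95% intervals and filled points for an adjusted p under 0.05. All 6 points are filled and left of 0 for 8 h against 4 h in WT, 2 are filled in bnagrp3, and 5 are filled and left of 0 for bnagrp3 against WT at 4 h.

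Against WT, the bnagrp3 mutant held less NCED3 transcript after 4 h of salt, and no copy was called at 8 h. At 4 h, 5 of the 6 tested copies were called lower, against 13.7% of all genes, and the median log2 difference was -0.53 for the copies and -0.02 for all genes. C05 was lower by -0.94 (SE 0.14, limma adjusted p = 0.000245), with 35.4 ± 1.37 TPM in bnagrp3 and 69.5 ± 12.8 in WT. A01 was lower by -0.78 (SE 0.13, adjusted p = 0.000561), with 48.3 ± 3.58 against 84.7 ± 15.0 TPM. C01 differed by -0.53 (adjusted p = 0.0122), A03 by -0.52 (adjusted p = 0.0137) and A05 by -0.46 (adjusted p = 0.00192). C03 stood at 9.09 ± 0.748 TPM against 14.1 ± 5.35 and was not called (-0.51, adjusted p = 0.0998).

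In a fit of only the groups compared, A05 (adjusted p = 0.0522) and A03 (adjusted p = 0.0944) were not called, nor was A03 with a pseudocount of 0.1 (adjusted p = 0.0928). The 4 h count ranged from 3 to 6 when a library was left out. Without WT at 4 h replicate 2, C03 was called as well (-0.85, adjusted p = 0.000456). Without WT at 4 h replicate 1, neither A03 (-0.42, adjusted p = 0.0707) nor C01 (-0.48, adjusted p = 0.052) was called, C01 was not called without WT at 4 h replicate 3 (adjusted p = 0.0533), and A03 was not called without bnagrp3 at 4 h replicate 1 (adjusted p = 0.0634). The summed level of guard cell genes was lower in bnagrp3 than in WT libraries in every treatment. The 42 copies of FAMA, MYB60 and SCRM, of which 24 reached 1 TPM in a library and 13 were listed at 0 in all, summed to 144 to 202 TPM in WT and 103 to 111 in bnagrp3 at 4 h, to 116 to 121 against 78.2 to 100.04 in mock and to 147 to 161 against 92.5 to 93.7 at 8 h. At 4 h 6 of the 21 tested were called lower and 2 higher, against 13.7% and 9.89% of all genes. The sum followed the 24 copies of SCRM, which is known to act outside guard cells too, at 74.5 to 133.7 TPM in WT and 29.7 to 33.2 in bnagrp3 at 4 h. FAMA (31.6 to 35.6 against 36.35 to 41.6) and MYB60 (32.65 to 34.6 against 35.1 to 42.4) lay the other way. Their part in the result was not tested.

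In mock, where all copies are weak, 1 of the 6 tested copies was called lower in bnagrp3, against 12.4% of all genes. This was C01, at 2.06 ± 0.430 TPM against 3.44 ± 0.561 in WT (-0.54, SE 0.14, limma adjusted p = 0.0121). It was not called without WT mock replicate 1 (adjusted p = 0.058), without bnagrp3 mock replicate 3 (0.0602) or in a fit of only the mock groups (0.0652). C05 lay the other way, at 1.80 ± 0.586 against 1.16 ± 0.110 TPM, with overlapping libraries (0.35, adjusted p = 0.0911). It was called higher with a pseudocount of 0.1 (0.55, adjusted p = 0.0484), without bnagrp3 mock replicate 1 (0.53, adjusted p = 0.011) and without WT at 4 h replicate 2 (0.35, adjusted p = 0.0401).

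At 8 h, 0 of the 6 tested copies were called by limma in either direction, against 23.4% of all genes, and 1 had an unadjusted p under 0.05. That was C01, at 49.7 ± 2.23 TPM in bnagrp3 and 39.0 ± 6.93 in WT (0.35, 95% interval 0.06 to 0.65, adjusted p = 0.0807). The estimates of the others ran from -0.38 for C03 to 0.17 for A03. Without WT at 4 h replicate 2, C03 was called lower (-0.38, adjusted p = 0.0387).

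The size of the salt response itself differed between genotypes for a copy at either time. At 4 h, C05 rose by 3.72 in bnagrp3 and 5.01 in WT, a difference of -1.29 (SE 0.20, limma adjusted p = 0.00433). It was the only 1 of the 6 copies called in that comparison, against 1.32% of all genes in that direction, and it was called under all 26 other settings. Without WT at 4 h replicate 2, A01 (-0.71, adjusted p = 0.0225) and C03 (-0.71, adjusted p = 0.0484) were called too. At 8 h, C01 rose by 4.06 in bnagrp3 and 3.17 in WT, a difference of 0.89 (SE 0.20, adjusted p = 0.0375). It was the 1 copy called of 6, against 0.782% of all genes in that direction, and was called under 14 of 26 other settings (adjusted p = 0.0196 to 0.0905). Each of these values sets the genotype difference under salt against that in mock. For C05 these were -0.94 and 0.35, and for C01 0.35 and -0.54.

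The make-up of the NCED3 pool shifted with time in salt. A03 and C03 together held 12.0% ± 1.12 of NCED3 TPM (SD, n = 3) in WT at 4 h and 5.93% ± 0.536 at 8 h. In bnagrp3 their share was 13.0% ± 1.35 at 4 h and 5.39% ± 0.0245 at 8 h, so the 3 libraries at 8 h lay below the 3 at 4 h in either genotype. The share of C01 went from 39.4% ± 1.11 in WT mock to 28.0% ± 1.12 at 4 h and 23.8% ± 3.26 at 8 h. In bnagrp3 the share of C01 was 29.2% ± 4.48 in mock, 30.7% ± 1.16 at 4 h and 29.8% ± 0.846 at 8 h. The ratio of C01 to A01 in TPM was accordingly 1.60 ± 0.0464 in WT mock and 0.812 ± 0.174 in WT at 8 h, and between 1.16 and 1.31 in the 3 bnagrp3 groups. The 3 A chromosome copies held between 40.2% and 49.1% of the pool in every group mean. Shares are a description and were not tested.

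**Figure D3:**
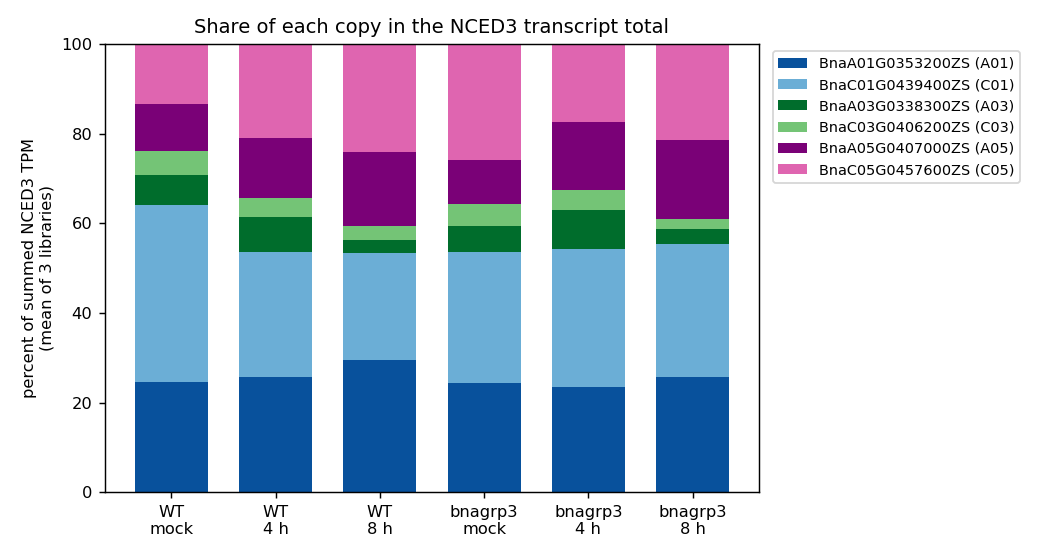
Percent of summed NCED3 TPM held by each copy, as the mean of 3 libraries per group. The A03 and C03 segments narrow from 12.0% to 5.93% in WT and from 13.0% to 5.39% in bnagrp3 between 4 h and 8 h, and the C01 segment is widest in WT mock at 39.4%.

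The 13 weak copies stayed under 1 TPM, where a value may rest on few reads. Both NCED5 copies, whose Arabidopsis counterpart adds to drought-induced ABA, were low, at most 0.64 TPM for BnaA09G0412900ZS and 0.35 for BnaC05G0258100ZS. NCED2 copies BnaA01G0092600ZS and BnaC01G0113600ZS were listed at 0 in all 18 libraries, and the 2 NCED6 copies stood at 0.12 TPM or less. BnaC06G0440600ZS, an NCED9 copy, was listed at 0 in all 3 WT mock libraries and in 2 of the 3 bnagrp3 mock libraries. With salt it read 0.31, 0.41 and 0.05 TPM in WT at 4 h and 0.29, 0.27 and 0.18 at 8 h. In bnagrp3 it read 0.26, 0.27 and 0.39 TPM at 4 h and 0.76, 0.73 and 0.70 at 8 h, so the last group stood above all other libraries. NCED9 copy BnaC02G0311900ZS reached 0.98 TPM in WT at 8 h replicate 2, the highest value of any weak copy. NCED9 copy BnaA07G0374800ZS was above 0 in all 9 WT libraries, at 0.03 to 0.16 TPM, and listed at 0 in all 9 bnagrp3 libraries.

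When the filter on low values was dropped, 82432 genes were tested and some weak copies were called by limma on the same log2 scale. BnaC06G0440600ZS was then called higher with salt in all 4 salt comparisons, by 0.32 in WT at either time, 0.34 in bnagrp3 at 4 h and 0.74 in bnagrp3 at 8 h (adjusted p = 9.41e-06). The shares of all genes called higher were 18.5% and 20.5% in WT at 4 h and 8 h and 20.4% and 22.1% in bnagrp3. It was also higher in bnagrp3 than in WT at 8 h (0.47, adjusted p = 0.00163; 7.86% of all genes higher). In WT at 8 h, 4 further weak copies were called higher, all of them under 1 TPM. Together with BnaC06G0440600ZS and NCED3 this made 11 of the 17 copies tested, against 20.5% of all genes. Of the 4, BnaC07G0422200ZS and BnaA02G0231600ZS were listed at 0 in all 3 WT mock libraries, so the count is given as a description. BnaC06G0440600ZS was also at 0 in all 3 WT mock libraries and in 2 of the 3 bnagrp3 mock libraries. Its calls against mock are likewise a description. BnaC05G0258100ZS was called lower in bnagrp3 at 4 h (-0.33, adjusted p = 0.0245) and BnaA07G0374800ZS at 8 h (-0.14, adjusted p = 0.0258), against 9.74% and 8.73% of all genes. Each was listed at 0 in all 3 bnagrp3 libraries of that time, so these calls too are given as a description.

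**Figure D4:**
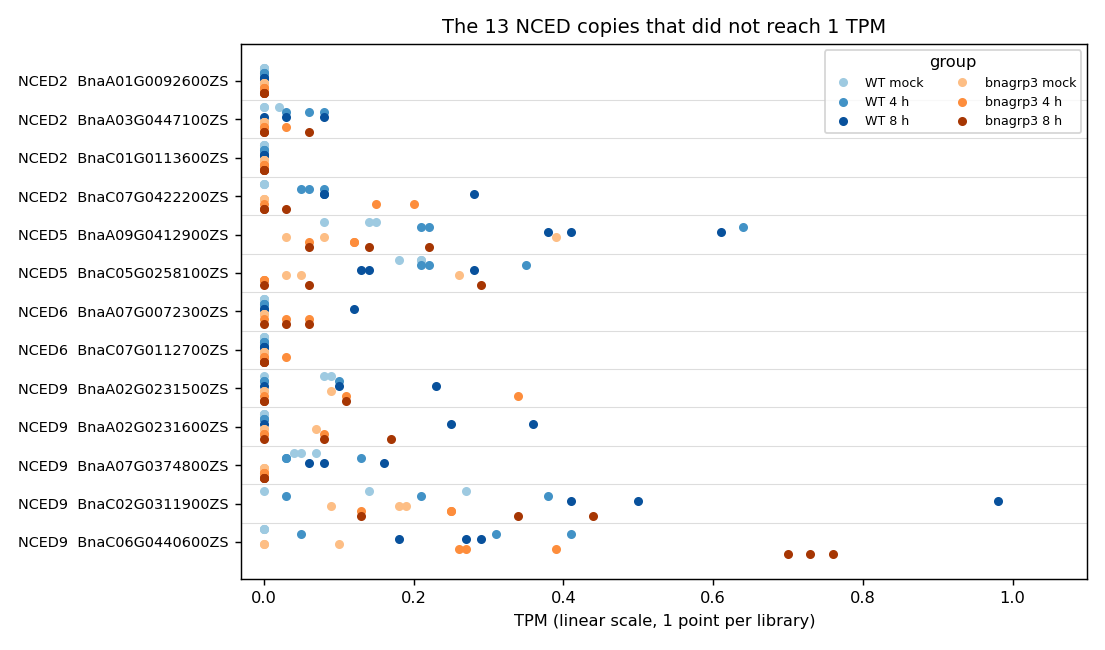
TPM of the 13 NCED copies that stayed under 1 TPM, 1 point per library on a linear axis, coloured by group. BnaC06G0440600ZS stands at 0.70 to 0.76 in the 3 bnagrp3 libraries at 8 h, and BnaA07G0374800ZS is above 0 in WT libraries only.

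After 4 h of salt in WT, other genes of ABA metabolism changed less than NCED3 and in both directions. A list of 115 genes for carotenoid precursors, ABA synthesis, breakdown, storage and transport held 74 that were tested. Of these, 32 rose, 13 fell and 29 were not called in WT at 4 h, with a median log2 fold change of 0.22 (26% of all genes rose and 20.5% fell). At 8 h 22 rose and 17 fell in WT (29% and 17.3% of all genes). In bnagrp3 32 rose and 13 fell at 4 h (28.7% and 23.5% of all genes), and 29 rose and 12 fell at 8 h (31.3% and 18.4%). In WT at 4 h no called rise among these 74 was as large as the smallest rise of a tested NCED3 copy, 3.30 for C03. In the other salt comparisons some exceeded the weakest NCED3 rises on this scale, which understates the changes of the weak copies A03 and C03. In bnagrp3 at 4 h a copy of the glucosidase gene BGLU18, BnaA06G0018600ZS, rose by 3.20, above 2.92 for C03. Its mean went from 42.7 ± 5.17 to 405 ± 84.3 TPM, a smaller factor than the 27.0-fold rise of C03. Transport gene ABCG25 copy BnaC06G0385900ZS rose by 2.49 in WT at 8 h, above 1.84 for A03 and 2.03 for C03. In bnagrp3 at 8 h it rose by 2.36, above 2.16 for A03 and 1.79 for C03. Its mean went from 1.87 ± 0.367 to 15.3 ± 3.10 TPM in WT at 8 h, between the 7.95-fold rise of A03 and the 10.4-fold rise of C03. In bnagrp3 at 8 h it went from 2.16 ± 0.421 to 15.2 ± 1.15 TPM, a smaller factor than 12.5-fold for A03 and 10.7-fold for C03.

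Upstream of NCED, phytoene synthase, which opens carotenoid synthesis, fell in 6 of 6 tested copies in WT at 4 h (20.5% of all genes). Its copy BnaA02G0068500ZS went from 12.9 ± 0.252 to 4.55 ± 0.731 TPM (-1.34, limma adjusted p = 2.38e-06). Zeaxanthin epoxidase (ZEP), which makes violaxanthin, rose in 4 of 4 copies in WT at 4 h (26% of all genes), whereas at 8 h 2 rose and 1 fell (29% and 17.3%). Its copy BnaC09G0095300ZS went from 6.20 ± 0.936 to 26.9 ± 1.002 TPM in WT at 4 h and stood at 12.4 ± 0.886 at 8 h (1.96, adjusted p = 8.23e-10, and 0.90, adjusted p = 3.07e-06). ZEP copy BnaC07G0208300ZS, the 1 that fell, went from 263 ± 14.6 to 223.5 ± 9.09 TPM at 8 h (-0.23, adjusted p = 0.0408). In WT at 4 h violaxanthin de-epoxidase, which runs the opposite reaction, fell in 2 of 2 copies, and ABA4, needed for neoxanthin, in 1 of 2 (20.5% of all genes).

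Downstream, 1 of 4 copies of ABA2, the enzyme that turns xanthoxin into abscisic aldehyde, fell in WT at 4 h (20.5% of all genes) and the others were not called. Abscisic aldehyde oxidase AAO3, the last step, rose in 2 of 2 copies (26% of all genes), and BnaC04G0474300ZS went from 1.91 ± 0.375 to 5.67 ± 1.06 TPM (1.19, adjusted p = 0.00018). CYP707A, the hydroxylases that break ABA down, rose in 8 of 11 tested copies in WT at 4 h (26% of all genes), in 5 at 8 h (29%), and in 6 at either time in bnagrp3 (28.7% and 31.3%). CYP707A1 copy BnaC07G0428600ZS went from 1.87 ± 0.272 to 7.71 ± 0.964 TPM in WT at 4 h (1.60, adjusted p = 1.2e-07). Of the transport genes, 5 of 13 rose in WT at 4 h (26% of all genes), with the efflux carrier DTX50 copy BnaC09G0342800ZS going from 0.54 ± 0.0920 to 10.6 ± 2.97 TPM (2.88, adjusted p = 1.05e-09).

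BGLU18, the glucosidase that frees ABA from its stored glucose ester, differed between genotypes the other way from NCED3. Its 4 copies were all called higher in bnagrp3 than in WT at 4 h, against 9.89% of all genes, and again at 8 h, against 11.4%. BnaA06G0018600ZS stood at 405 ± 84.3 TPM in bnagrp3 and 148 ± 85.6 in WT at 4 h (1.57, SE 0.32, limma adjusted p = 0.00247). At 8 h it stood at 187 ± 28.0 against 35.0 ± 6.86 TPM (2.39, adjusted p = 7.62e-05). In mock 2 of the 4 copies were called higher, against 9.1% of all genes, and BnaA06G0018600ZS was not (42.7 ± 5.17 against 33.0 ± 11.3 TPM, adjusted p = 0.408). BGLU18 was singled out after its values were seen. Of all 74 tested genes of the list, 9 were called higher and 13 lower in bnagrp3 at 4 h (9.89% and 13.7% of all genes). At 8 h 12 were higher and 5 lower (11.4% and 12%). Of 13 transport genes 0 were higher and 4 lower at 4 h, and of 11 CYP707A copies 1 was higher and 3 lower.

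**Figure D5:**
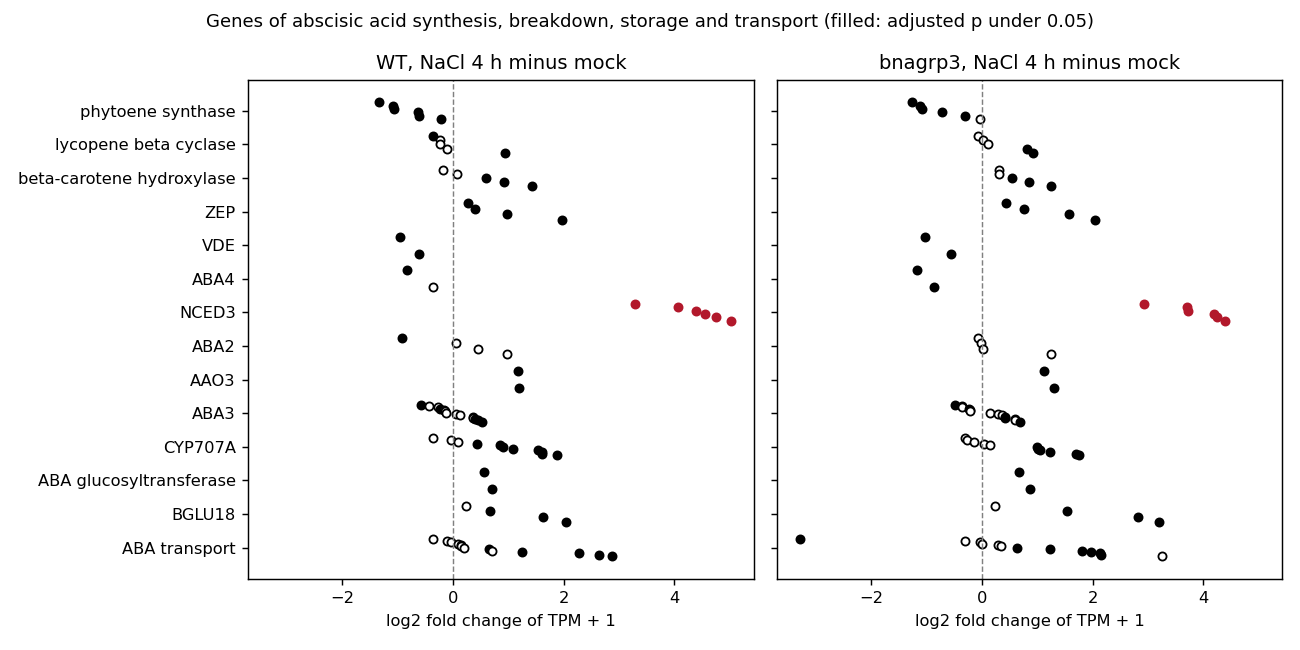
Log2 fold change of TPM + 1 after 4 h of salt for each tested gene, by step of ABA synthesis, breakdown, storage and transport, in WT and in bnagrp3, with filled points for an adjusted p under 0.05 and NCED3 in red. The NCED3 points lie at 3.30 to 5.01 in WT and 2.92 to 4.39 in bnagrp3, phytoene synthase lies below 0 and ZEP above 0.

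The other carotenoid cleavage dioxygenases, relatives of NCED outside ABA synthesis, showed no common rise. Of 16 genes 8 were tested, and in WT at 4 h 2 rose and 3 fell, against 26% and 20.5% of all genes. CCD1 copy BnaC08G0429400ZS fell from 15.0 ± 2.58 to 4.90 ± 0.468 TPM (-1.43, limma adjusted p = 3.63e-07), while CCD1 copy BnaA04G0000400ZS rose from 152 ± 7.21 to 194 ± 12.2 TPM (0.35, adjusted p = 0.000406). Genes known in Arabidopsis to act on NCED3 were listed as well, 32 in all and 24 tested. In WT at 4 h 4 of them rose and 11 fell, against 26% and 20.5% of all genes, and with a filter of 5 TPM, which left fewer to test, 5 were called in place of 15. ATAF1 (NAC002), an activator of NCED3 in Arabidopsis, rose in 2 of 2 copies in all 4 salt comparisons, and BnaA10G0003000ZS went from 5.60 ± 0.473 to 21.3 ± 3.14 TPM in WT at 4 h (1.75, adjusted p = 5.25e-08). HAT1, a repressor there, fell in 3 of 3 tested copies, with BnaC01G0227200ZS going from 5.50 ± 0.893 to 1.87 ± 0.992 TPM (-1.24, adjusted p = 0.00101). BAM3, a receptor kinase for the peptide CLE25 that signals from root to leaf, fell in 6 of 7 copies in WT at 4 h. Of the others listed, NGA1 rose in 0 and fell in 1 of 4 tested copies in WT at 4 h. That copy, BnaA04G0295900ZS, went from 5.91 ± 1.04 to 1.80 ± 0.556 TPM (-1.31, limma adjusted p = 4.39e-06). CLE25 rose in 1 and fell in 1 of 6 tested copies, and BAM1 rose in 1 of 2.

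The genes whose level followed the most abundant NCED3 copy, C01, most closely were sought among 21546 genes with a Swiss-Prot match and a mean of at least 5 TPM, as the Pearson correlation of log2(TPM + 1) over the 18 libraries. The libraries share the mock to salt step, which gives many genes a high correlation. The closest was BnaC05G0174300ZS, a copy of the dehydrin ERD10, with r = 0.996 and group means of 197 TPM in WT mock, 1882 at 4 h and 1079 at 8 h. Next came GOLS2 copies BnaA09G0178900ZS (r = 0.995) and BnaC09G0202600ZS (r = 0.994), which encode galactinol synthase of the raffinose pathway. BnaA05G0461200ZS, a Sec24-like transport protein (r = 0.994), and BnaC09G0412100ZS, the F-box protein SKIP1 (r = 0.994), completed the 5 closest.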

How the data were processed

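The deposited table gives TPM per gene and library, per the file headers, as made by the authors; fastp, HISAT2 and featureCounts were used, per the submitters' processing notes. Their versions, the genome build, the annotation and the strand setting are not stated in labels or headers. TPM keeps no read depth, so precision was judged from the 3 libraries of each group. Members were matched on the Swiss-Prot description. Members, gene lists and comparisons were chosen with earlier results of these data known. Non-member genes named are, for each step and salt comparison, the called copy with the largest rise or fall among copies with non-overlapping libraries and a mean of at least 5 TPM in a group, not every one of which is named; BGLU18 was described between genotypes after its values were seen. The list for ABA3, the molybdenum cofactor sulfurase, also matches non-plant descriptions and is counted, not described. Beta-amylases that share the symbol BAM were removed.

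Genes with at least 1 TPM in at least 3 of 18 libraries were kept. Values were analysed as log2(TPM + 1) with limma 3.58.1 in R 4.3.3 (trend, 6 group means, all libraries in the fit), two-sided, adjusted by Benjamini-Hochberg within a comparison. The script was tested on simulated data. Each result was recomputed without a filter, with one of 5 TPM, with 0.1 as pseudocount, after median-of-ratios or quantile scaling, from the compared groups alone, with a replicate block and without each library in turn. The difference between genotypes of the change from 4 h to 8 h was added after the data were seen. Plots used matplotlib 3.10.9 (Python 3.11.15).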

Additional observations from a re-analysis of the deposited data

Results flagged for a closer look

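The salt response of 2 NCED3 copies differed between genotypes by a direct test in limma. The difference in the response of BnaC05G0457600ZS at 4 h, bnagrp3 minus WT, was -1.29 on the log2(TPM + 1) scale, and every WT library at 4 h (54.7 to 77.5 TPM) stood above every bnagrp3 library (34.2 to 36.9 TPM). The difference in the response of BnaC01G0439400ZS at 8 h was 0.89, and every bnagrp3 library at 8 h (47.2 to 51.5 TPM) stood above every WT library (31.0 to 43.2 TPM). That 0.89 sets a difference of -0.54 in mock against 0.35 at 8 h; the latter was not called by itself (limma adjusted p = 0.0807), and the 0.89 was called under 14 of 26 other settings and not under 12.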

How the results depend on the processing

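Of 312 recomputed counts of called NCED copies, over 12 comparisons, 28 moved by more than 1.5 times, and no called value changed sign. Estimates of some values that were not called crossed 0, such as C03 between genotypes in mock (-0.34 to 0.05). For bnagrp3 against WT at 4 h the count of 5 became 3 in a fit of only the groups compared and 3 to 6 when a library was left out. At 8 h the count of 0 became 2 with no filter, 2 without WT at 4 h replicate 2 and WT at 8 h replicate 3, and 0 to 1 leaving out a library. In mock the count of 1 became 2 with a pseudocount of 0.1, 0 with only the groups compared, 2 without that pair of libraries and 0 to 2 leaving out a library. For the genotype difference of the response, the 4 h count of 1 became 3 without the pair and 1 to 3 leaving out a library, and the 8 h count of 1 became 0 with only the groups compared and 0 to 1 leaving out a library. In WT, 8 h against 4 h gave 3 in place of 6 with only the groups compared, and 8 h against mock gave 11 in place of 6 with no filter, where weak copies were tested. The cause of the other changes was not tested. Of the wider ABA list, 22 genes were called between genotypes at 4 h and 7 in a fit of only those groups; of the NCED3 regulators, 15 were called in WT at 4 h and 5 with a filter of 5 TPM.

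Libraries with the same replicate number did not deviate together (r = -0.431 to 0.066 over 45 pairs), so the numbers were not taken to pair samples. A replicate block left each count of called NCED copies as it was, for example 5 at 4 h, and C05 kept its difference of -1.29 (adjusted p = 0.0107) and C01 its 0.89 (adjusted p = 0.032). The depth behind values under 1 TPM is unknown.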
